A study of Capra hircus with 3 samples.

Results

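The SLC25 family of mitochondrial carriers was followed in the longissimus dorsi, the long back muscle, of goats (Capra hircus) at 3 ages. Members were all rows of the deposited expression table whose product text opens with solute carrier family 25 or uncoupling protein, without rows described as "-like". This gave 46 members of 24689 entries, and 5 "-like" rows were left out. A kid library came from 2 months of age, a youth library from 9 months and an adult library from 24 months, so each stage had 1 RNA sequencing library. The sources used here give neither breed nor sex, nor how many animals went into a library. Because a stage had no second library, no difference could be set against a spread between animals and no test was made.

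Most carriers of this family sit in the inner membrane of mitochondria. They move metabolites between the cytosol and the matrix, mostly by exchange of a solute on each side. In skeletal muscle the best known of them export ATP in return for ADP, bring in the phosphate that ATP synthase needs, admit fatty acids as acylcarnitines, and carry reducing equivalents from glycolysis through the malate-aspartate shuttle. The uncoupling proteins are members of the family named for the proton leak that UCP1 gives to brown fat.

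The values were FPKM, which divides by gene length and by sequencing depth, so levels can be compared between genes of a library. Whole reads behind the values were worked out from the smallest steps between them, and the totals were 15829474, 14920689 and 18399385 in kid, youth and adult. In a gene of 1 kb, 3 reads were worth 0.190, 0.201 and 0.163 FPKM in that order. Ratios between libraries carry an exact 95% interval of the reads, which covers counting error only and compares those libraries. A difference "beyond counting error" is a ratio whose interval leaves out 1. A gene was called apart when the difference of log2(FPKM + 1) corresponded to at least 1.5-fold. The skeletal muscle markers ACTA1, CKM, MYLPF, MB and TNNT3 summed to 48654, 57634 and 66969.5 FPKM in kid, youth and adult. A protocol label names mammary tissue. The table lists no FPKM above 0 for CSN2, CSN3 or LALBA, genes of milk proteins. A listed 0 need not mean an absent transcript, so these milk genes alone cannot decide the tissue. In bulk tissue, fewer cells of a type and less RNA per cell cannot be told apart.

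The family as a whole was most abundant in the adult library and least abundant in the youth library. The 46 members summed to 3315, 2851 and 4507 FPKM in kid, youth and adult, which was 0.628%, 0.547% and 0.828% of all FPKM. SLC25A4, the ADP/ATP carrier of heart and skeletal muscle, alone held 55.4%, 53.1% and 61.6% of the family sum. The adult sum was 1.58-fold that of youth with SLC25A4 and 1.29-fold without it. Of the 46 members, 36 had a mean of at least 1 FPKM and entered the comparisons, and 10 were below that level. A member of low abundance could pass this filter through a single library where it was high.

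**Figure D1:**
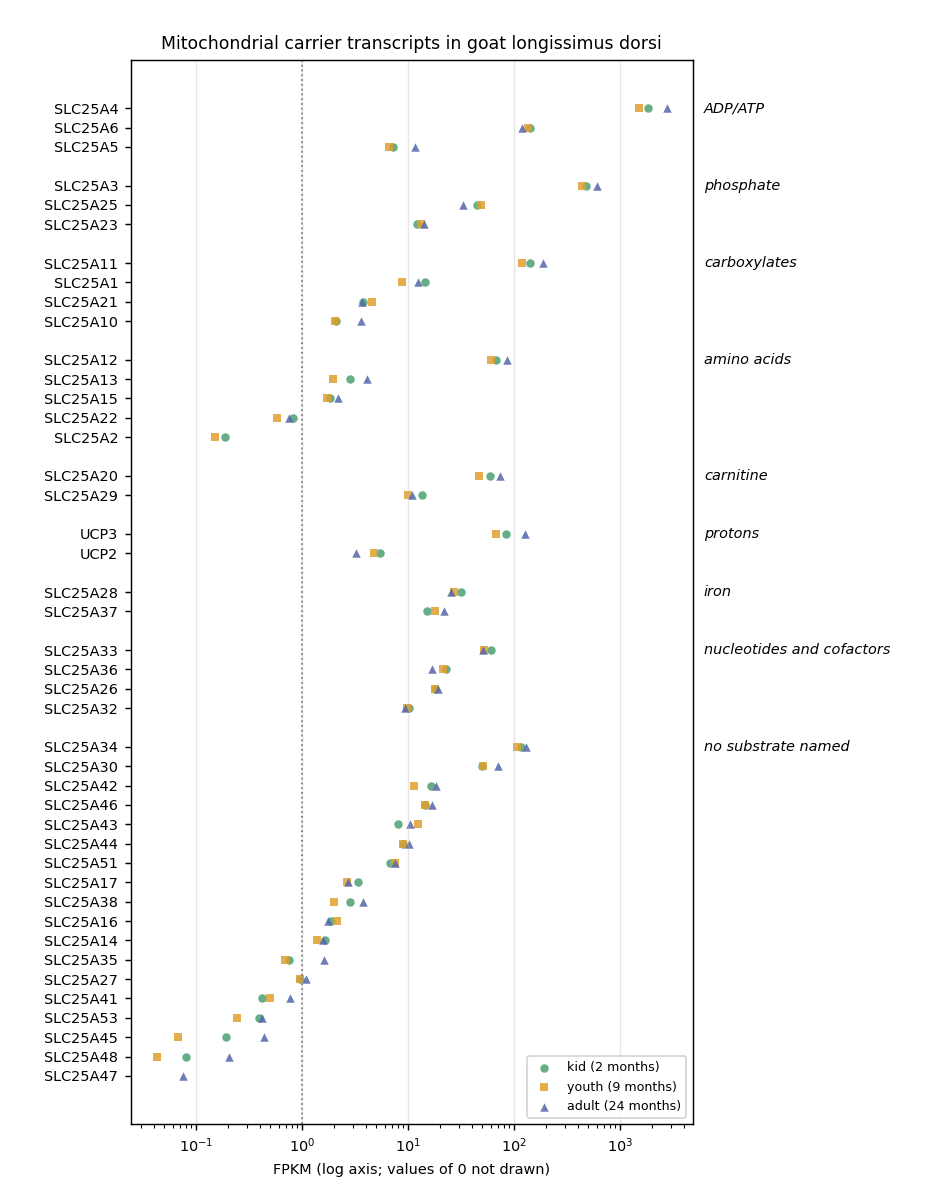
FPKM of 43 members on a log axis, 1 symbol per library (circle kid, square youth, triangle adult), ordered by the substrate named in the product text; the dotted line marks 1 FPKM. SLC25A4 stands far to the right at 1836, 1513 and 2778 FPKM, and SLC25A31 and UCP1, listed at 0 throughout, are not drawn.

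The ADP/ATP carriers differed among themselves. SLC25A4 (gene 100861351) stood at 1836 FPKM in the kid library, 1513 in the youth and 2778 in the adult library, from 38423, 29839 and 67580 reads. It ranked 32, 33 and 20 among all entries of the table. The adult value was 1.84-fold that of youth (interval 1.81 to 1.86) and 1.51-fold that of kid (1.49 to 1.53), and youth was 1.21-fold below kid (1.20 to 1.23). Adult was thus highest and youth lowest. SLC25A6 (gene 102178813), a broadly expressed ADP/ATP carrier in humans, was instead lowest in adult at 142, 135 and 118 FPKM. Its adult value was 1.14-fold below youth (1.07 to 1.22) and 1.20-fold below kid (1.12 to 1.28). Its youth value was within counting error of kid. The level of SLC25A4 per SLC25A6 was 13.0 in kid, 11.2 in youth and 23.5 in adult.

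SLC25A5 (gene 102173075), which in humans and mice is the ADP/ATP carrier of dividing cells, was low at 7.22, 6.57 and 11.6 FPKM. Adult was 1.76-fold above youth (1.40 to 2.24), close in size to the difference of SLC25A4. The level of SLC25A4 per SLC25A5 was 254, 230.3 and 239.7 in kid, youth and adult. These carriers have similar sequences, and the sources do not say how a read that fits more than 1 of them was assigned. The SLC25A5 and SLC25A6 values are therefore uncertain, and the part of shared reads in them was not tested. SLC25A31, the carrier of the testis in mice and humans, was listed at 0 in all 3 libraries. Together these carriers summed to 1985, 1654 and 2908 FPKM, or 59.9%, 58.0% and 64.5% of the family.

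The phosphate carriers also differed from each other in which library was highest. SLC25A3 (gene 102187745), which brings phosphate into the matrix with a proton, was the next most abundant member at 479, 434 and 611 FPKM. Adult was 1.41-fold above youth (1.36 to 1.46) and 1.28-fold above kid (1.23 to 1.32). SLC25A25 (gene 102171252), a calcium-regulated carrier that exchanges ATP-magnesium for phosphate, was lowest in adult at 44.9, 48.3 and 33.1 FPKM. Its adult value was 1.46-fold below youth (1.37 to 1.54) and 1.35-fold below kid (1.28 to 1.44). SLC25A23, a calcium-regulated carrier of the same kind, was at 12.2, 13.1 and 14.2 FPKM, within counting error in each comparison. The level of SLC25A4 per SLC25A3 was 3.84 in kid, 3.48 in youth and 4.55 in adult.

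Among carriers of carboxylates, the oxoglutarate carrier was dominant. SLC25A11 (gene 102175612), which exchanges oxoglutarate for malate in the malate-aspartate shuttle, was at 142, 118 and 186 FPKM. Its adult value was 1.57-fold above youth (1.5 to 1.65) and 1.31-fold above kid (1.25 to 1.37), and youth was 1.20-fold below kid (1.14 to 1.27). SLC25A10, the dicarboxylate carrier, was at 2.07, 2.03 and 3.61 FPKM, and adult was 1.78-fold above youth (1.19 to 2.72). SLC25A21, the oxoadipate carrier of lysine and tryptophan breakdown, was at 3.73, 4.52 and 3.70 FPKM, within counting error throughout.

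SLC25A1 (gene 102188525), which exports citrate for lipid synthesis, was the sole member called apart between youth and kid. It was at 14.4, 8.68 and 12.4 FPKM, and youth was 1.66-fold below kid (1.37 to 2.02). It was no longer called after median-of-ratios scaling or with a pseudocount of 5. Adult was 1.43-fold above youth (1.18 to 1.74) and within counting error of kid. The 5 matched adipocyte markers of a list of 6 summed to 88, 32.1 and 48 FPKM in kid, youth and adult, with ADIPOQ at 64.3, 24.3 and 32.4. Their part in the SLC25A1 values was not tested. Genes of citrate export and lipid synthesis were low. ACLY, which splits citrate to acetyl-CoA, was at 5.45, 4.68 and 5.65 FPKM, and FASN, the fatty acid synthase, at 4.62, 3.28 and 3.55.

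The amino acid carriers were led by SLC25A12 (gene 102187719), or aralar, the calcium-sensitive aspartate/glutamate exchanger of muscle and brain that completes the malate-aspartate shuttle. It was at 68.1, 61.1 and 86.6 FPKM, with adult 1.42-fold above youth (1.34 to 1.5) and 1.27-fold above kid (1.21 to 1.34). SLC25A13, or citrin, the related exchanger best known from liver, was far lower at 2.81, 1.97 and 4.07 FPKM. Adult was 2.07-fold above youth (1.61 to 2.68), and youth 1.43-fold below kid (1.08 to 1.90). SLC25A12 exceeded SLC25A13 by 24.2-fold in kid, 31.1-fold in youth and 21.3-fold in adult. The ornithine carrier SLC25A15, of the urea cycle, was at 1.81, 1.71 and 2.18 FPKM, and the glutamate carrier SLC25A22 stayed under 1 FPKM in every library. SLC25A2, named as an ornithine transporter, had 4 reads in kid, 3 in youth and 0 in adult.

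For fatty acid entry, SLC25A20 (gene 102186811), the carnitine/acylcarnitine translocase, was at 59.8, 46.4 and 73.6 FPKM. Adult was 1.59-fold above youth (1.48 to 1.70) and 1.23-fold above kid (1.16 to 1.31), and youth was 1.29-fold below kid (1.20 to 1.39). SLC25A29, whose product text names carnitine but which in humans carries basic amino acids, was at 13.5, 9.98 and 11.0 FPKM. Youth was 1.36-fold below kid (1.04 to 1.77), while adult was within counting error of both. With its reads and length doubled to a plausible 1316 bases, adult was lower than kid (ratio 0.684 to 0.963). The level of SLC25A20 per SLC25A29 was 4.42, 4.65 and 6.70 in kid, youth and adult.

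The uncoupling proteins of muscle stood in opposite directions in adult. UCP3 (gene 102184741), the form typical of skeletal muscle, was at 84.3, 67.2 and 127 FPKM. Adult was 1.89-fold above youth (1.8 to 1.99), the largest difference on the log2(FPKM + 1) scale among the 36 members in that comparison at 0.91, and 1.51-fold above kid (1.44 to 1.58). UCP2, which is expressed in many tissues and in immune cells, was at 5.40, 4.79 and 3.22 FPKM, from 91, 76 and 63 reads. Adult was 1.49-fold below youth (1.05 to 2.11) and 1.68-fold below kid (1.20 to 2.35). UCP2 was called lower in adult against kid as deposited, but not after median-of-ratios scaling or quantile normalization. UCP3 exceeded UCP2 by 15.6-fold, 14.04-fold and 39.6-fold in kid, youth and adult. The 4 matched macrophage markers of a list of 5 summed to 43.2, 49.4 and 23.5 FPKM, and each of them was lower in adult than in kid and in youth beyond counting error. Their part in the UCP2 values was not tested. UCP1 was listed at 0 in every library.

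UCP2 and UCP3 are next to each other among the protein-coding genes of the goat assembly ARS1.2, which was used here for names and order only. SLC25A29 and SLC25A47 were also neighbours, as were SLC25A41 and SLC25A23. In each pair the levels were far apart, with SLC25A47 listed at 0, 0 and 0.0751 FPKM and SLC25A41 at 0.421, 0.503 and 0.770 FPKM.

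The iron carriers, known as mitoferrins, deliver iron for heme and iron-sulfur clusters. SLC25A28, or mitoferrin 2, which serves most tissues, was at 31.5, 27.4 and 25.2 FPKM and was 1.25-fold lower in adult than in kid (1.11 to 1.41). SLC25A37, or mitoferrin 1, known from red cell precursors, was at 15.1, 17.8 and 21.9 FPKM and was 1.45-fold higher in adult than in kid (1.33 to 1.59). The level of SLC25A28 per SLC25A37 was 2.08 in kid, 1.54 in youth and 1.15 in adult, while the sum of both was 46.6, 45.2 and 47.1 FPKM. The matched red cell precursor markers ALAS2 and SLC4A1, which were 2 of a list of 5, were listed at 0 in kid and youth and summed to 0.0449 FPKM in adult.

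Among carriers of nucleotides and cofactors, 4 are described here, and none of them was higher in adult beyond counting error. The pyrimidine nucleotide carriers SLC25A33, at 60.1, 52.3 and 50.4 FPKM, and SLC25A36, at 22.9, 21.3 and 16.8 FPKM, were lower in adult than in kid by 1.19-fold (1.10 to 1.29) and 1.37-fold (1.19 to 1.57). SLC25A26, which imports S-adenosylmethionine for methylation in the matrix, was at 17.8, 17.8 and 19.0 FPKM, and the folate carrier SLC25A32 at 10.3, 9.85 and 9.43 FPKM. Neither was beyond counting error in any comparison.

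Of the 18 members whose product text names no substrate, 12 had a mean of at least 1 FPKM. SLC25A34 was the most abundant of them at 116, 107 and 128 FPKM, and adult was 1.20-fold above youth (1.13 to 1.26). SLC25A30, a relative of the uncoupling proteins, was at 49.8, 50.6 and 70.8 FPKM, and adult was 1.40-fold above youth (1.32 to 1.49). SLC25A42, which in humans carries coenzyme A, was at 16.5, 11.4 and 18.2 FPKM. Its youth value was 1.45-fold below kid (1.29 to 1.63) and adult was 1.6-fold above youth (1.43 to 1.79). SLC25A35 was at 0.758, 0.684 and 1.6 FPKM from 20, 17 and 49 reads, with adult 2.34-fold above youth (1.32 to 4.33). It was above 1 FPKM in the adult library alone and so passed the filter through the library where it was high.

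Among the others of this set, some were nearly level or highest in youth. SLC25A46, which sits in the outer membrane and acts in mitochondrial shape, was at 14.4, 14.5 and 16.6 FPKM. Its adult value was 1.15-fold above youth (1.05 to 1.26) and 1.16-fold above kid (1.06 to 1.27). SLC25A44, a carrier of branched-chain amino acids in mice and humans, was at 9.04, 8.99 and 10.2 FPKM, and SLC25A51, the human mitochondrial NAD carrier, at 6.72, 7.51 and 7.48 FPKM. Neither of these was beyond counting error in any comparison. SLC25A43 was highest in youth at 7.95, 12.4 and 10.3 FPKM, 1.56-fold above kid (1.25 to 1.95), and lay just inside the threshold at 0.58 on the log2(FPKM + 1) scale. It was called higher in youth under each of the 3 other scalings. SLC25A38, the glycine carrier of heme synthesis, was called higher in adult than in youth at 3.75 against 2.01 FPKM, but its interval from 10 and 23 recovered reads included 1 (0.854 to 4.39). Those reads go with a length of 333 bases, too short for a carrier, and with 3 times the reads and length the interval was 1.2 to 2.97. SLC25A14, SLC25A16, SLC25A17 and SLC25A27 lay between 0.951 and 3.34 FPKM in all libraries, and SLC25A45, SLC25A48 and SLC25A53 stayed under 0.5 FPKM. A ubiquitous gene of the outer mitochondrial membrane, VDAC3, was also listed at 0 in all libraries, so a listed 0 in this table need not mean an absent transcript.

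**Figure D2:**
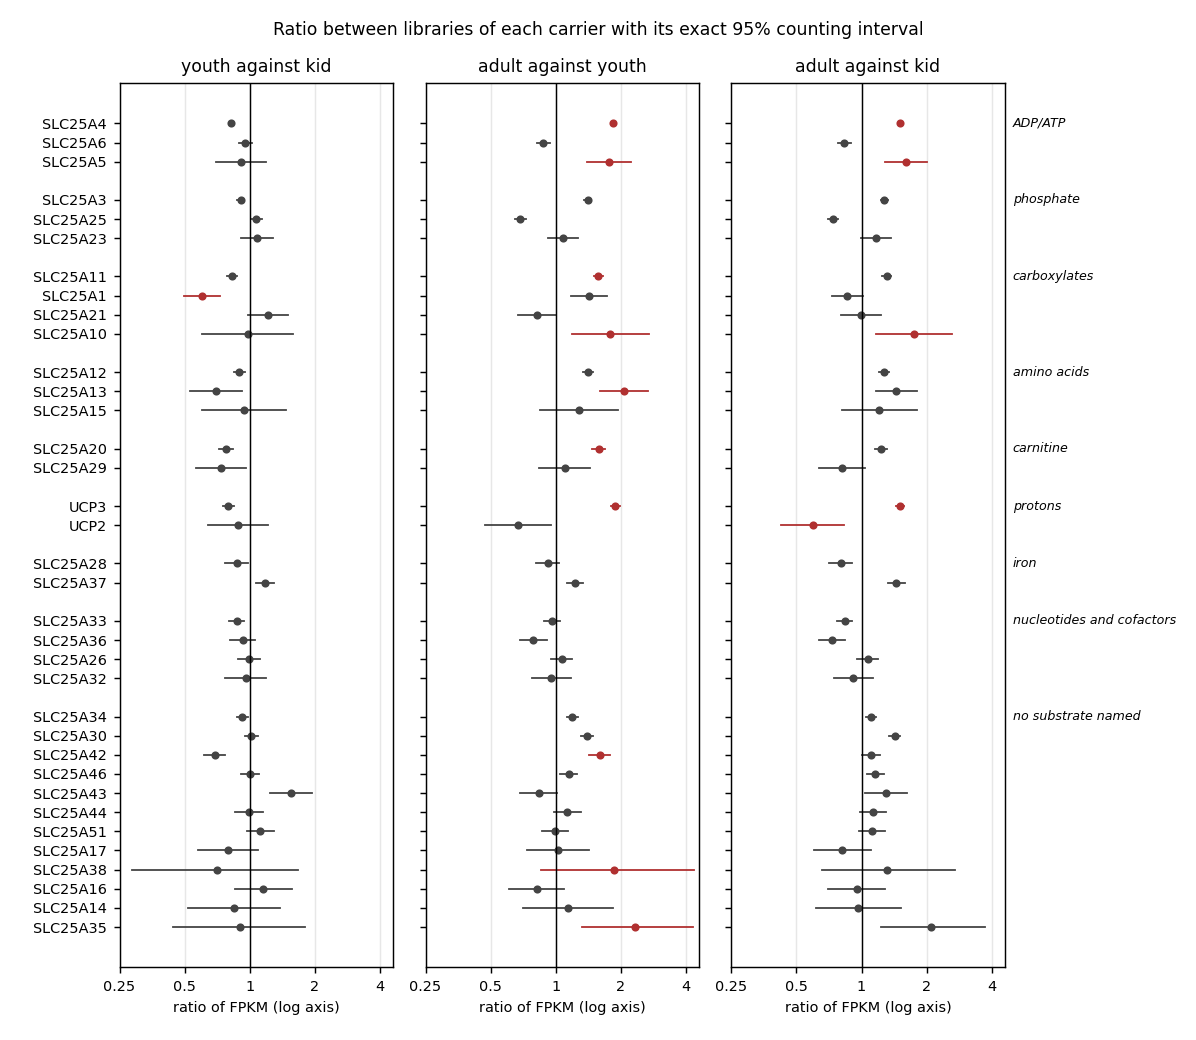
Ratio of FPKM between libraries for 35 of the 36 members with a mean of at least 1 FPKM, on log axes, with exact 95% counting intervals as bars; members called apart by 1.5-fold on the log2(FPKM + 1) scale are red. In adult against youth 10 members are red and all lie right of 1, from SLC25A11 at 1.57-fold to SLC25A13 at 2.07-fold and, farther right, SLC25A35, which passed the filter through the adult library alone. SLC25A25 lies left of 1.

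Youth against kid asks what differed between the libraries at 2 and 9 months. None of the 36 members was called higher and 1 was called lower (SLC25A1), against a background of 1.5% higher and 3.77% lower over the 12121 genes that passed the same filter. None reached 2-fold, where the background was 0.421% higher and 0.627% lower. Beyond counting error, 3 members were higher (SLC25A25, SLC25A37 and SLC25A43) and 13 lower, where the background was 11.6% and 26.9%. The median difference of the members was -0.11 on the log2(FPKM + 1) scale and that of all genes -0.08. In direction alone 27 members were lower and 9 higher (background 64.3% and 35.7%). After median-of-ratios scaling and after quantile normalization 21 were lower and 15 higher. That background does not apply there, as the median of all genes moved to -0.0024 and -0.0053. The medians of the members were then -0.0308 and -0.0305. At 1.5-fold the shares of members called were thus near the background in this comparison.

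Adult against youth asks the same of 9 and 24 months. Here 11 of 36 members were called higher and none lower, against a background of 5.4% higher and 5.45% lower. SLC25A35 passed the filter through the adult library alone; without it and all genes above 1 FPKM in a single library, 10 of 35 members were called higher, with a background of 5.33% in each direction. Among those called were SLC25A4, SLC25A5, SLC25A10, SLC25A11, SLC25A13, SLC25A20, SLC25A35, SLC25A38, SLC25A42 and UCP3. With a pseudocount of 5, which damps low genes, 4 calls remained (SLC25A4, SLC25A11, SLC25A20 and UCP3). The background at that pseudocount was 2.2% higher. SLC25A11 was not called after quantile normalization, nor SLC25A10 after scaling to the sum without the 10 most abundant genes. None of them reached 2-fold on the log2(FPKM + 1) scale, where the background was 1.01% higher and 1.07% lower. Beyond counting error 17 members were higher and 4 lower (SLC25A6, SLC25A25, SLC25A36 and UCP2), with a background of 22.3% and 27%. In direction alone 25 were higher and 11 lower (background 47.3% and 52.7%). The median difference was 0.21 for the members and -0.02 for all genes. Markers of other cells also differed between these libraries. Fibroblast markers summed to 942 FPKM in youth and 649.7 in adult, with 4 of 4 lower. Most of that difference lay in the collagens COL3A1 (379 and 192 FPKM) and COL1A1 (183 and 106). DCN and PDGFRA were 1.08-fold and 1.12-fold lower. Macrophage markers summed to 49.4 and 23.5 with 4 of 4 lower, and T cell markers to 6.73 and 3.88. Adipocyte markers were higher in adult, at 32.1 and 48 FPKM, with 3 of 4 above the filter higher beyond counting error and PLIN1 3.17-fold higher. Of the 5 muscle fibre markers 4 were higher in adult. The endothelial sums were 123.5 and 119 FPKM, with 2 of 4 markers higher and 2 lower beyond counting error. The part of these differences in the carrier values was not tested. Counting intervals are narrower for abundant genes, and the median level was 12.5 FPKM for the members and 7.83 FPKM for all genes.

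Adult against kid compared the ends of the series, with 4 members called higher (SLC25A4, SLC25A5, SLC25A10 and UCP3) and 1 lower (UCP2). The background was 2.6% higher and 6.64% lower. None reached 2-fold (background 0.536% higher and 1.22% lower), and in direction alone 23 were higher and 13 lower (background 37.5% and 62.5%). After median-of-ratios scaling 8 were called higher and none lower, where the background rose to 4.33% higher and fell to 4.53% lower. UCP3, at 0.59 on the log2(FPKM + 1) scale, lay just past the threshold and was not called after quantile normalization. With a pseudocount of 5, SLC25A4 alone remained, where the background was 1.2% higher and 2.04% lower. Beyond counting error 17 members were higher and 6 lower, among them SLC25A6, SLC25A25, SLC25A28, SLC25A33, SLC25A36 and UCP2 on the lower side, where the background was 16.7% and 34.6%. The median difference was 0.17 for the members and -0.10 for all genes. The 3 comparisons share libraries, so the youth values enter 2 of them with opposite sign.

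**Figure D3:**
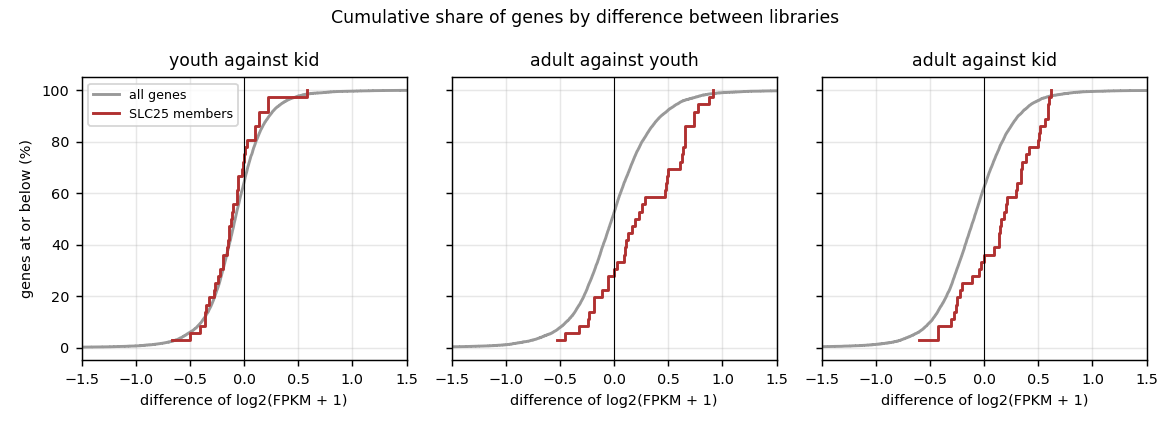
Cumulative percentage of genes by difference of log2(FPKM + 1) in each comparison, for 12121 genes (grey) and 36 SLC25 members (red). The curves lie close together for youth against kid (medians -0.11 and -0.08), and the members lie to the right for adult against youth (0.21 and -0.02) and adult against kid (0.17 and -0.10).

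By substrate, the largest ratios of summed FPKM between adult and youth were those of the proton and ADP/ATP carriers. The sums were 1.81-fold higher for proton carriers, 1.76-fold for ADP/ATP carriers, 1.54-fold for carboxylate carriers and 1.5-fold for carnitine carriers. Amino acid carriers were 1.43-fold and phosphate carriers 1.33-fold higher. The iron carriers stood at a ratio of 1.04 and the nucleotide and cofactor carriers at 0.976. Each of the 6 higher sums was mostly made of 1 member (UCP3, SLC25A4, SLC25A11, SLC25A20, SLC25A12 or SLC25A3), so these ratios lie near that member's own.

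**Figure D4:**
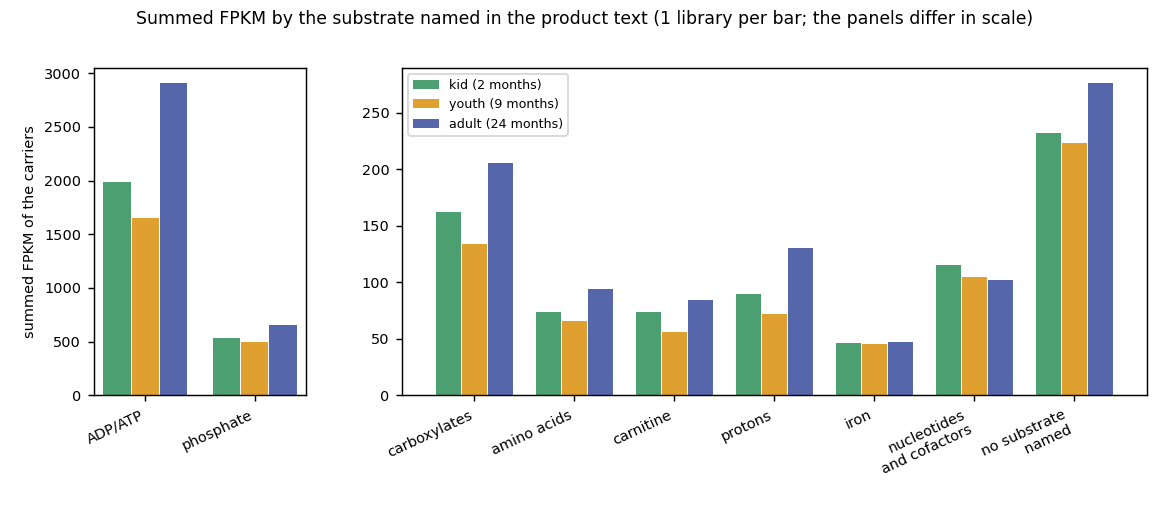
Summed FPKM of the members by named substrate, 1 bar per library (green kid, orange youth, blue adult), on linear axes from 0; the left panel has a larger scale. ADP/ATP carriers reach 1985, 1654 and 2908 FPKM, and iron carriers stay at 46.6, 45.2 and 47.1 FPKM.

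The order of levels within the family was similar in the 3 libraries at the top. SLC25A4 and SLC25A3 ranked 1 and 2 in each. The top 5 members held 81.9%, 80.9% and 85% of the family sum in kid, youth and adult. SLC25A6 stood at rank 4 in kid, 3 in youth and 6 in adult, and UCP3 at 6, 6 and 5. Many neighbours in the order could not be separated by counting error: the intervals overlapped in 31 of 42 neighbouring pairs in kid, 32 of 42 in youth and 30 of 41 in adult. SLC25A11 and SLC25A6 overlapped in kid, and SLC25A34 and UCP3 in adult.

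Genes that work with the carriers were set beside them from lists by substrate. Of 7 genes on the ATP side, 6 were higher in adult than in youth beyond counting error and none lower (median difference 0.59). CKMT2, the mitochondrial creatine kinase that takes up exported ATP, was at 500.1, 438 and 899.7 FPKM, 2.05-fold higher in adult than in youth (2.00 to 2.10). CKM, the most abundant gene of that list, was at 14183, 19069 and 18998 FPKM. The 4 malate-aspartate shuttle enzymes were all higher in adult than in youth beyond counting error (median 0.60). The cytosolic aspartate aminotransferase GOT1 was at 125, 84.1 and 229.8 FPKM, 2.73-fold higher (2.61 to 2.86), and MDH2, the matrix malate dehydrogenase, at 628, 549.6 and 804 FPKM.

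All 5 genes of the carnitine shuttle list were higher in adult than in youth beyond counting error (median 0.47), but none was called apart at 1.5-fold. The most abundant gene of the list was ACADVL, at 258, 222 and 307 FPKM. It is the very-long-chain acyl-CoA dehydrogenase of fatty acid oxidation, not a part of the shuttle itself. CPT2, which frees acyl groups from carnitine in the matrix, was at 22.7, 14.3 and 19.8 FPKM. Of 10 matched genes that import carriers into the inner membrane, from a list of 13, 9 were higher and none lower (median 0.42), with the small chaperone TIMM13 at 130.1, 139 and 199 FPKM and TOMM40, the pore of the outer membrane, at 26.6, 29.5 and 43.6 FPKM. Of 9 channels and pyruvate carrier genes above the filter, 7 were higher and 1, the calcium channel MCU, lower (median 0.24). VDAC1, the outer membrane channel, was at 382, 384 and 421 FPKM, and MPC2 of the pyruvate carrier at 163, 146 and 223 FPKM.

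Of 7 genes of iron and heme use, 5 were higher and 1 lower (median 0.23), with the scaffold ISCU at 160.3, 142 and 217 FPKM and the transferrin receptor TFRC at 47.1, 40.6 and 63.7. Of 4 sideroflexins above the filter, 1 was higher, SFXN4 at 19.7 against 13.5 FPKM, and none was lower (median -0.0026). Of 4 genes of citrate export and lipid synthesis 1 was higher, ACLY, and none lower (median 0.10). The most abundant of them was ME1 at 6.81, 7.72 and 8.40 FPKM. Beside these counts beyond counting error, the background for adult against youth was 22.3% and 27%. Called higher at 1.5-fold were 4 of 7 genes on the ATP side and 2 of 4 malate-aspartate shuttle enzymes. The same held for 2 of 10 import genes, 2 of 7 iron and heme genes and 1 of 9 channel and pyruvate carrier genes. In the other lists no gene was called higher, and none was called lower in any list (background 5.4% and 5.45%).

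In youth against kid most of these lists leaned lower, and so did all genes (median -0.08). The median of channels and the pyruvate carrier, at -0.04, was less low than that of all genes. Beyond counting error 1 gene was higher (CKM) and 6 lower of 7 on the ATP side, and 0 and 4 of 4 in the malate-aspartate shuttle. The counts were 1 and 3 of 5 in the carnitine shuttle list, and 0 and 4 of 10 in carrier import. For channels and the pyruvate carrier they were 1 and 3 of 9, and for iron and heme use 1 and 4 of 7. Sideroflexins and the citrate export and lipid synthesis list each had 0 and 2 of 4. Of all genes 11.6% were higher and 26.9% lower. At 1.5-fold CPT2 was called lower and no other gene of these lists was called apart (background 1.5% higher and 3.77% lower). In adult against kid, the background beyond counting error was 16.7% higher and 34.6% lower. Here 7 genes were higher and 0 lower of 7 on the ATP side, and 4 and 0 of 4 in the malate-aspartate shuttle. The carnitine shuttle list had 3 and 0 of 5, and carrier import 4 and 1 of 10. The counts were 7 and 0 of 9 for channels and the pyruvate carrier, and 5 and 1 of 7 for iron and heme use. They were 1 and 1 of 4 for sideroflexins, and 1 and 2 of 4 for citrate export and lipid synthesis. Called higher at 1.5-fold were 2 genes on the ATP side, 2 of import and 1 each of the malate-aspartate and carnitine lists. No other gene of these lists was called apart (background 2.6% higher and 6.64% lower).

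**Figure D5:**
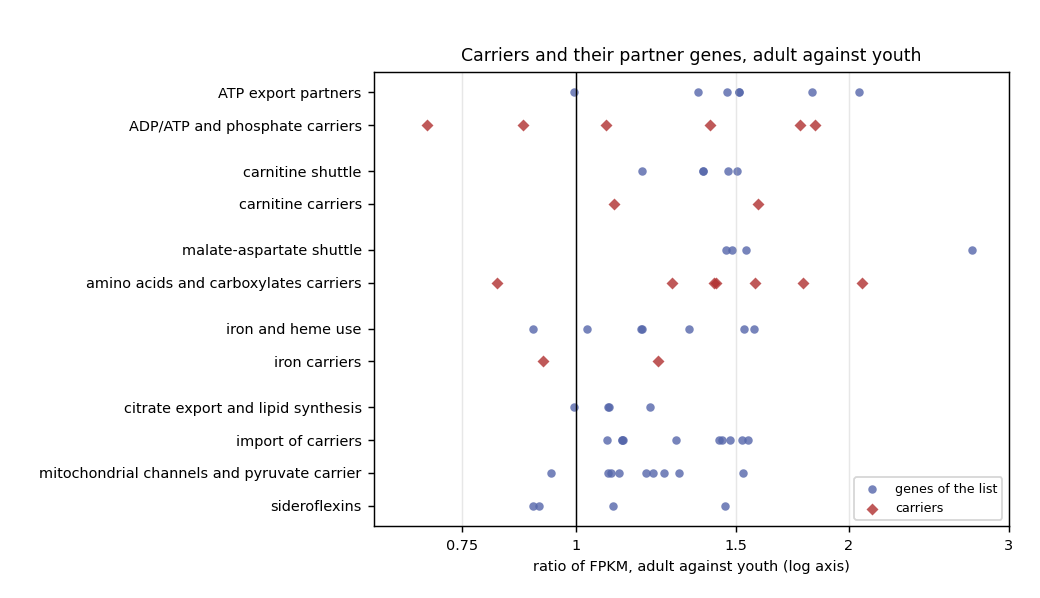
Ratio of FPKM, adult against youth, on a log axis for partner genes (blue circles) and carriers by substrate group (red diamonds). The malate-aspartate shuttle list is set beside all amino acid and carboxylate carriers above the filter, including those of citrate and ornithine. ATP export partners reach 2.05 (CKMT2) and shuttle enzymes 2.73 (GOT1), while the ADP/ATP and phosphate carriers spread from 0.686 (SLC25A25) to 1.84 (SLC25A4).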

How the data were processed

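RNA was sequenced in 3 libraries, 1 per stage. What the authors deposited is a single FPKM table in which each stage has a column, per the file headers. FastQC, TopHat2 and DESeq are named without version or role, per the submitters' processing notes; no build, annotation or counting method, nor how multi-mapped reads were handled, is given in the sources used here. Names came from a table of assembly ARS1.2 by gene number: all 46 members matched, 43 with their family symbol, and SLC25A6, SLC25A2 and SLC25A53 were named from the product text.

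Whole reads and gene lengths were recovered from the steps between values, within 5e-05 of a read plus rounding, for 100% of the entries above 0 in at least 2 libraries, and made up 95.3%, 94.9% and 96.3% of the totals. Reads and length can share a common factor, which widens an interval: SLC25A3, SLC25A6, SLC25A29 and SLC25A38 gave lengths under 900 bases, shorter than a carrier's coding sequence. Intervals are exact (conditional binomial, Clopper-Pearson, 95%) and cover counting error only. Genes needed a mean of 1 FPKM, the pseudocount was 1, and calls were at 1.5-fold. Named members had at least 5 FPKM in a library or were called apart; others are given in brief. From each partner list the most abundant gene and that with the largest difference were named, and some beside a carrier. SLC25A31 and UCP1 at 0 and VDAC3 were named after their values were seen. The members and lists were chosen with earlier results of these data known. Steps were tested on simulated reads. 1 member counted in the totals is not reported here by name and is not drawn singly. Protein and promoter sequences were not used here. Python 3.11.15, numpy 2.4.6, pandas 2.3.3 and scipy 1.17.1 were used.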

Additional observations from a re-analysis of the deposited data

How the results depend on the processing

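No paired analysis was possible because each stage has 1 library, and no library could be left out for the same reason. No member beyond counting error changed direction under the 3 other scalings, and of the values of single named members under other pseudocounts and scalings 432 stayed within the counting interval and 33 left it. With a pseudocount of 0.1, 1 member was called higher in youth against kid, beside 2.64% of all genes at that setting. With a pseudocount of 5, the calls were 0 lower in youth against kid (0.825% of all genes) and 4 higher in adult against youth (2.2%). In adult against kid they were 1 higher and 0 lower (1.2% and 2.04%). At a mean of at least 5 FPKM, 6 of 25 members were called higher in adult against youth (5.34% of all genes). None was lower in adult against kid (5.71%). At 2-fold, no member was called in any comparison (0 in each). Median-of-ratios scaling gave 1 higher and 0 lower in youth against kid (2.21% and 2.55% of all genes). In adult against kid it gave 8 higher and 0 lower (4.33% and 4.53%). Quantile normalization gave 1 higher in youth against kid (2.52% of all genes) and 0 lower in adult against kid (4.26%). Scaling to the sum without the 10 most abundant genes gave 1 higher in youth against kid (1.9%). Medians moved by less than 0.1. The family sums were 3158, 2897 and 4653 FPKM in kid, youth and adult after median-of-ratios scaling, 3249 and 3094 in kid and youth after quantile normalization, and 3269, 2918 and 4465 without the 10 most abundant genes. The cause of these moves was not tested, apart from the fewer members at the higher filter. Adding the "-like" rows left the share of the ADP/ATP carriers within its counting error. Leaving out genes above 1 FPKM in 1 library only, and multiplying the reads of members with short recovered lengths, were chosen after seeing the data. The latter moved SLC25A38 (adult against youth) and SLC25A29 (adult against kid) beyond counting error.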
